A study of Mus musculus
Mus spretus with 18 samples.

Results

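The polypyrimidine tract binding (PTB) proteins are encoded by the genes Ptbp1, Ptbp2 and Ptbp3. They were taken by gene symbol from every table of exon skipping and from the table of gene expression, and they make up 3 of 38924 genes and 62 of 125200 skipped exon (SE) events. Of those events, 15 lie in Ptbp1 (ENSMUSG00000006498, chr10:79854432-79864435, plus strand, GRCm38), 13 in Ptbp2 (ENSMUSG00000028134, chr3:119718741-119784647, minus strand) and 34 in Ptbp3 (ENSMUSG00000028382, chr4:59471868-59549378, minus strand). At least 20 reads in both libraries of some group were found for 15, 12 and 28 of them, respectively.

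Alternative splicing was measured by RNA sequencing in F1 hybrids of a female C57BL/6J and a male SPRET/EiJ mouse, in which a read that crosses a sequence difference can be given to its parental allele. Cerebral cortex, heart, kidney, lung and spleen came from 2 female F1 animals aged 8 weeks, and liver data of the same animals came from an earlier study. Embryonic stem cells (ESC) were 2 independent F1 clones. A fibroblast line from such mice was treated for 4 hours with pladienolide B at 0.1 µM, a compound that binds the splicing factor SF3B, or with DMSO alone. Each of the 9 groups had 2 libraries, and nothing in the labels says that the 2 libraries of a fibroblast group came from separate cultures, so p-values there measure only the spread between these libraries. The liver labels carry the strain names C57BL/7J and C57BL/8J, which were treated as C57BL/6J.

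PTB proteins bind pyrimidine-rich RNA and mostly repress the exons beside it. Ptbp1 is made in most dividing and non-neuronal cells, Ptbp2 is the neuronal member of the family, and Ptbp3 is best known from blood-forming cells. In Ptbp2, Ptbp1 protein represses an exon whose loss shifts the reading frame and exposes the RNA to nonsense-mediated decay, and Ptbp1 and Ptbp2 proteins repress a matching exon in Ptbp1 itself. This exchange is a textbook switch of neuronal differentiation.

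The 14 tissue libraries held 46558287 to 129496306 reads in the tabulated junctions, and the 4 fibroblast libraries 129067054 to 151755602. Heart, kidney, lung, liver, ESC and fibroblasts each expressed their own marker genes above all other groups, with summed marker levels from 2273 TPM (a length-corrected share of all transcripts) for the 3 fibroblast markers in fibroblasts to 202150 TPM for the 3 lung markers in lung. The 4 neuron markers summed to 2677 to 2780 TPM in cortex and to at most 24.9 TPM elsewhere. In bulk tissue, fewer cells of a type and less RNA per cell cannot be told apart.

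Ptbp1 and Ptbp2 had opposite places in the cerebral cortex. Ptbp1 was lowest there, at 25.0 and 22.4 TPM in the 2 libraries, and Ptbp2 was highest there, at 111 and 109 TPM. TPM is corrected for gene length, so levels can be compared between genes. The ratio of Ptbp2 to Ptbp1 was 4.67 ± 0.298 (SD, n = 2) in cortex. It was 0.413 ± 0.0327 in heart, the next highest group, and 0.0975 ± 0.0437 in ESC, the lowest.

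Ptbp1 reached 31.4 and 32.2 TPM in heart, 40.6 and 40.6 in liver, 104 and 103 in kidney, and 150 and 158 in lung. It reached 195 and 194 TPM in spleen, 261 and 256 in DMSO fibroblasts, and 324 and 372 in ESC. Pladienolide B fibroblasts (118 and 121 TPM) lay between kidney and lung. No neighbours in this order overlapped, so the libraries of each group lay wholly above those of the group before it. The share of all genes without such overlap was not computed. Between cortex and ESC the level differed 14.7-fold. After rescaling by size factors, which takes out differences in composition between libraries, cortex kept the lowest mean (16.7 TPM), liver came close to kidney (94.5 and 95.7 TPM), and ESC (231 ± 28.6, SD, n = 2) was no longer apart from pladienolide B fibroblasts (222 ± 2.25).

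**Figure D1:**
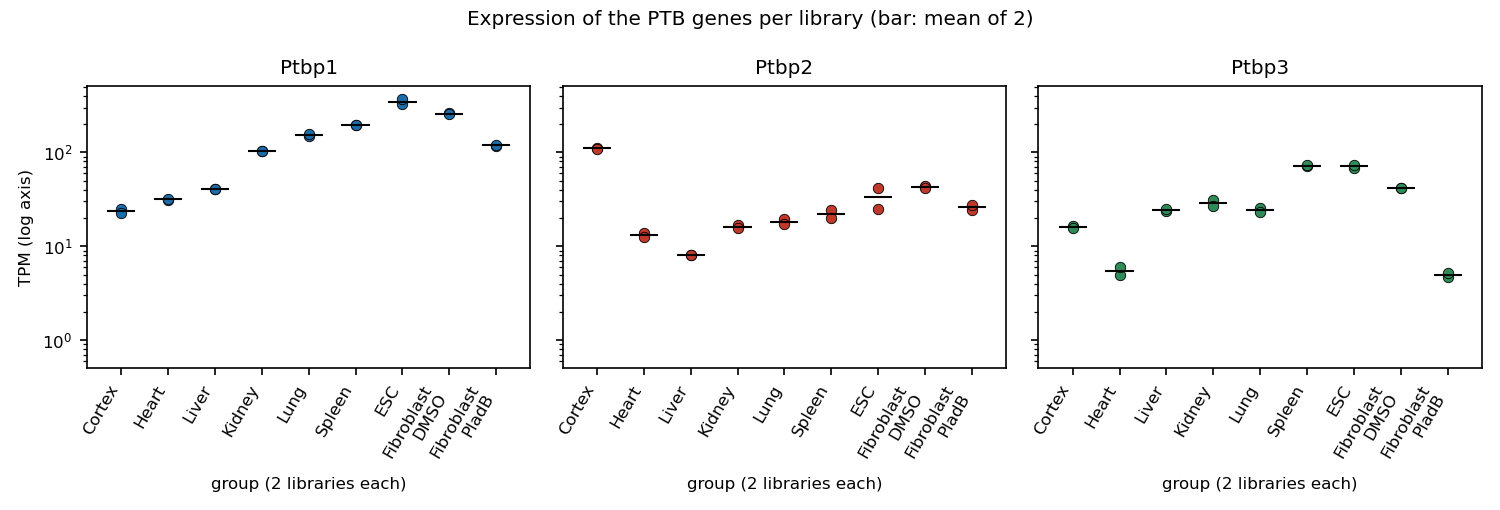
Expression of the 3 PTB genes in each of 18 libraries (points) with the mean of the 2 libraries of a group (bars), as TPM on a log axis. Ptbp1 lies between 22.4 and 372 TPM with its lowest values in cortex, Ptbp2 is highest in cortex at 111 and 109 TPM, and Ptbp3 is lowest in heart and in fibroblasts given pladienolide B; the fall of Ptbp1 and Ptbp2 with pladienolide B is not seen after rescaling (0.19 and 0.58 on the log2 scale).

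Ptbp2 in the other groups was between 8.11 TPM in a liver library and 43.4 TPM in a DMSO fibroblast library. After cortex the order ran through DMSO fibroblasts (43.4 and 42.2 TPM), ESC (41.6 and 24.8), spleen (24.2 and 20), lung (19.6 and 17.1), kidney (16.7 and 15.7), heart (13.7 and 12.6) and liver (8.11 and 8.13). The 2 ESC clones were the most unlike pair, and they overlapped with pladienolide B fibroblasts (24.5 and 27.4 TPM). Cortex was 13.6-fold above liver and 3.32-fold above ESC. With rescaled TPM cortex stayed highest (77.8 TPM), but liver was no longer lowest (18.9 TPM, against 14.9 in lung).

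The level of Ptbp3 went partly with that of Ptbp1 (Pearson's r = 0.621 over the 9 groups) and hardly with that of Ptbp2 (0.103). Spleen (71.6 and 73.1 TPM) and ESC (68.9 and 73.9 TPM) were highest and overlapped with each other. Fibroblasts in DMSO had 41.6 and 42.1 TPM, kidney 31.3 and 27.0, liver 24.0 and 24.7, lung 25.5 and 23.2, and cortex 16.3 and 15.7. Heart was the lowest tissue, at 4.93 and 6.09 TPM. With rescaled TPM heart stayed lowest (7.12 TPM) and liver (56.8 ± 2.88, SD, n = 2) joined spleen (55.5 ± 3.45) at the top. Liver and lung overlapped, as did heart and pladienolide B fibroblasts.

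Expression was compared on log2(TPM + 0.1) with limma, which moderates the variance of each gene across 22136 genes. Across the 7 tissues all 3 members differed, with ranges between the highest and lowest tissue of 3.87 for Ptbp1, 3.75 for Ptbp2 and 3.70 for Ptbp3 on the log2 scale (adjusted p from limma 9.54e-13, 1.58e-08 and 4.81e-11). This sets them apart little, since 98.8% of genes passed the same limits of an adjusted p under 0.05 and a difference of at least 1. Cortex was then set against each of the 6 other tissues, where 13 of 18 member comparisons passed. The background was 58.8% of genes against heart, 52.8% against kidney, 54.7% against lung, 58.7% against spleen, 71.2% against liver and 61.1% against ESC.

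Ptbp2 passed in all 6 comparisons, each time as higher in cortex, as did 44.6% of genes against heart, 33.7% against kidney, 30.3% against lung, 33.7% against spleen, 60.6% against liver and 33.4% against ESC. Its excess in cortex ran from 1.78 on the log2 scale over ESC to 3.75 over liver (SE 0.18, adjusted p from limma 2.08e-06 and 1.10e-09). Ptbp1 was lower in cortex than in kidney (-2.12), lung (-2.70), spleen (-3.03) and ESC (-3.87, SE 0.07 throughout), where 19.1%, 24.4%, 25.0% and 27.7% of genes, respectively, were called lower. The differences of Ptbp1 from heart (-0.42) and liver (-0.78) stayed under the limit of 1, and 14.2% and 10.6% of genes were called lower there. Ptbp3 was higher in cortex than in heart (1.53) and lower than in spleen (-2.17) and ESC (-2.15, SE 0.11), with kidney (-0.85), lung (-0.60) and liver (-0.60) under the limit.

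TPM shares out a fixed total among all transcripts, so a level depends on the rest of the library. The median gene was 1.56 higher in cortex than in liver and 0.81 higher than in heart on the log2 scale. After division by median-ratio size factors these medians were 0.11 and 0.06. On that scale the cortex deficit of Ptbp1 was -1.30 against heart and -2.49 against liver, and both passed. Ptbp3 then passed against kidney (-1.25) and liver (-2.32) and no longer against heart (0.66), and the cortex excess of Ptbp2 over liver was 4.12-fold.

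Among the SE events, the 34-bp exon of Ptbp2 varied most. This exon (chr3:119724612-119724645) lies between a 140-bp exon (chr3:119726066-119726205) and a 93-bp exon (chr3:119724094-119724186), and its length is no multiple of 3. Inclusion is given as percent spliced in (PSI), the length-corrected share of junction reads that include the exon, from 0 to 1. The PSI was 0.951 and 0.973 in cortex, from 1438 and 1400 reads. It was 0.0953 and 0.0320 in spleen, from 319 and 242 reads.

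Heart (0.873 and 0.869) and ESC (0.884 and 0.872) also included the exon in most transcripts. Kidney (0.471 and 0.508) and liver (0.393 and 0.517) were intermediate and overlapped. Lung had 0.326 and 0.183. Cortex lay above every other group and spleen below every other group. ESC had the highest Ptbp1 TPM of all groups and a PSI near that of heart.

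**Figure D2:**
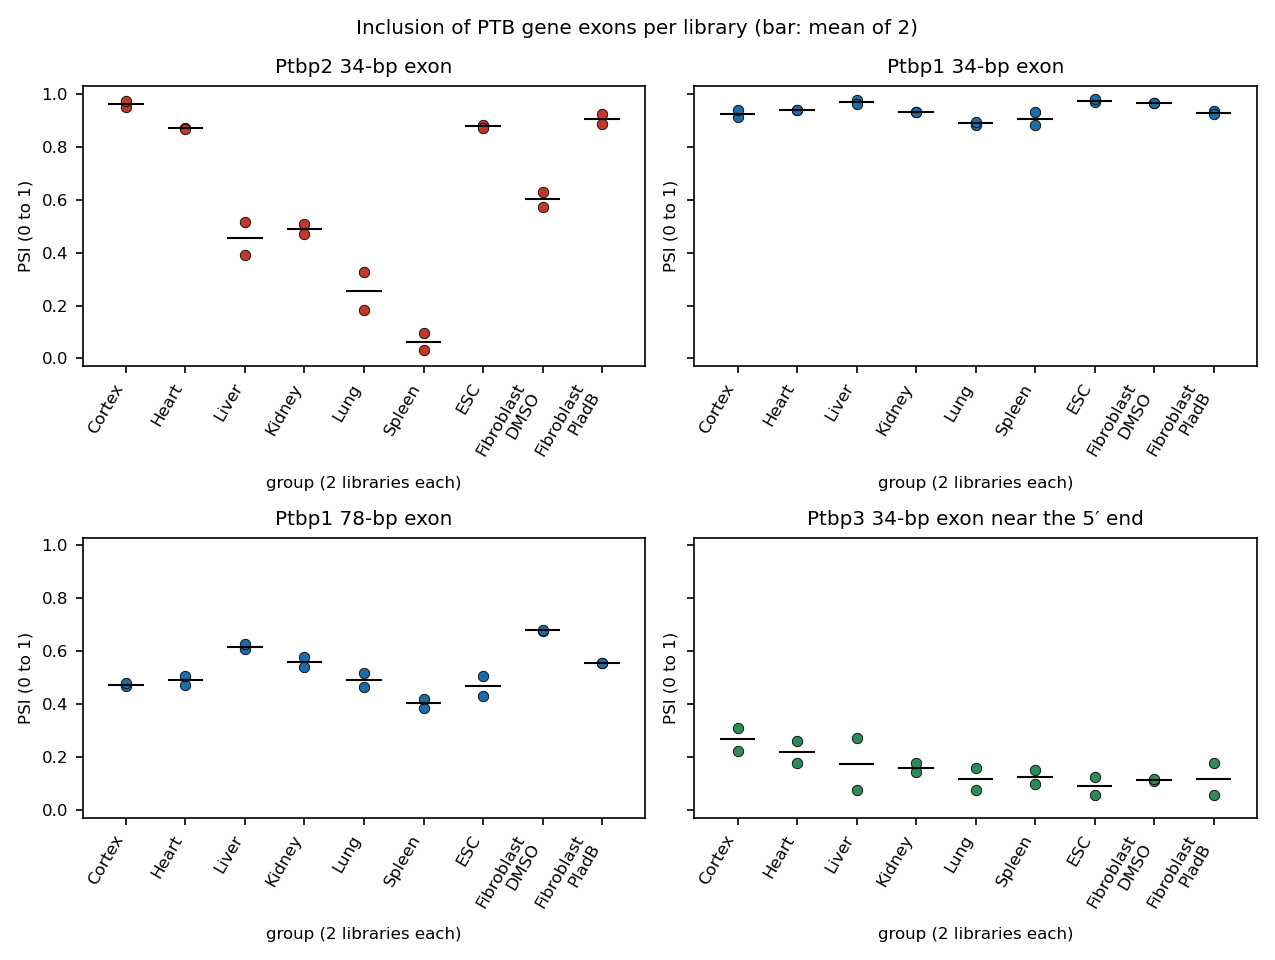
PSI of 4 exons of the PTB genes in each of 18 libraries (points) with the mean of the 2 libraries of a group (bars), from all reads. The Ptbp2 exon runs from 0.0320 in a spleen library to 0.973 in a cortex library. The 34-bp exon of Ptbp1 stays at or above 0.881, and the 78-bp exon of Ptbp1 lies between 0.384 and 0.681. The 34-bp exon near the 5′ end of Ptbp3 stays at or below 0.309 in its only event with enough reads in all 7 tissues.

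Inclusion and skipping reads were compared with a quasi-binomial test whose dispersion was moderated with limma across all events, and an event was called when the Benjamini-Hochberg adjusted p was under 0.05 and the PSI differed by at least 0.1. Across tissues, 2 of the 17 member events found in at least 2 tissues were called, against 7.48% of all 47963 events. They were the 34-bp exon of Ptbp2, with a range of 0.898 between tissue means (adjusted p from the moderated test 3.03e-07), and the 78-bp exon of Ptbp1. Ptbp3 had 0 of 8 events called, and none of its events had an unadjusted p under 0.05.

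Cortex exceeded spleen by 0.898 in the Ptbp2 exon (adjusted p from the moderated test 3.28e-08), lung by 0.708 (2.05e-07), liver by 0.508 (6.04e-05) and kidney by 0.473 (5.34e-06). The differences from heart (0.0906, adjusted p 0.0539) and ESC (0.0839, adjusted p 0.0722) were not called. Of the 5 member events that could be set against cortex in each tissue, this exon was the only one called, and it was called in the 4 comparisons named. The background was 10.6% of events for spleen, 9.65% for lung, 11.2% for liver, 9.68% for kidney, 10.1% for heart and 8.99% for ESC. Against heart and ESC, where 0 of 5 passed the moderated test, the unadjusted p was under 0.05 for 1 and 2 events, respectively. All 4 calls held when any single library was left out.

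Level and inclusion together set the amount of Ptbp2 RNA that carries the exon. The product of TPM and PSI was 106 ± 0.337 TPM in cortex (SD, n = 2), 29.2 ± 10.7 in ESC and 25.7 ± 1.16 in DMSO fibroblasts. It was 11.4 ± 0.733 in heart, 7.92 ± 0.0929 in kidney, 4.76 ± 2.31 in lung, 3.69 ± 0.719 in liver and 1.47 ± 1.17 in spleen. Spleen expressed more Ptbp2 than heart, kidney, lung or liver by deposited TPM and the least by this product, but with rescaled TPM its level (16.9) was not above those of heart (17.0) and liver (18.9). Cortex exceeded spleen 5.00-fold by TPM and 72.2-fold by the product (67.6-fold with rescaled TPM). The spleen libraries had products of 2.30 and 0.641 TPM, and with only the first or only the second of them the ratio was 45.9 or 165.

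In Ptbp1 an exon of the same length was included almost everywhere. This 34-bp exon (chr10:79862014-79862047) follows a 146-bp exon and, like its counterpart in Ptbp2, precedes a 93-bp exon. The highest PSI was 0.968 and 0.981, in ESC, and the lowest 0.883 and 0.894, in lung, while spleen had 0.881 and 0.931. Cortex, with the least Ptbp1, had 0.912 and 0.939. The range between tissue means was 0.0856, with an adjusted p from the moderated test of 0.00449, and so it stayed under the limit of 0.1.

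The 78-bp exon of Ptbp1 (chr10:79860117-79860194) keeps the reading frame and encodes part of the linker between RNA recognition motifs of the protein. Its PSI was intermediate in every tissue. Liver was highest, at 0.608 and 0.626, followed by kidney at 0.541 and 0.577. Lung (0.465 and 0.518), heart (0.472 and 0.508), ESC (0.506 and 0.431) and cortex (0.467 and 0.479) overlapped. Spleen had 0.384 and 0.421, below all other tissues. The range of 0.215 was called with an adjusted p from the moderated test of 0.0376. This call rests on few libraries, since leaving out any library of cortex, heart, kidney, spleen or liver raised the adjusted p to between 0.0587 and 0.127, and leaving out a library of lung or ESC did not end the call.

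A 196-bp exon near the start of Ptbp1 (chr10:79856339-79856534) was included least in ESC, at 0.869 and 0.891. Heart (0.972 and 0.976), kidney (0.971 and 0.974) and lung (0.965 and 0.970) lay higher, and so did spleen (0.95 and 0.957) and liver (0.966 and 0.915). The range of 0.0943 was just under the limit (adjusted p from the moderated test 0.00591). A 31-bp form of this exon (chr10:79856504-79856534) has the same flanking exons and had more reads (20675 beside 4363 in ESC). Its mean PSI was 0.981 in ESC and its range across tissues was 0.0148, so the values of the 196-bp event do not give the skipping of both forms together. The remaining 4 tested events of Ptbp1, the 31-bp form among them, differed by 0.0370 or less.

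The exon of Ptbp3 that shares its length and the length of the next exon with those of Ptbp1 and Ptbp2 (34 bp, chr4:59485339-59485372, before a 93-bp exon) appears in the tables only as a neighbour of other events, and no PSI was computed for it. Another 34-bp exon of Ptbp3 lies near the 5′ end of the gene (chr4:59546149-59546182). It appears in several events with different flanking exons. Values of this exon here and below are from the only event with enough reads in all 7 tissues. With another pair of flanking exons its mean PSI was 0.931 in kidney (34 and 44 reads) and 0.864 in spleen (34 and 63 reads). With a further pair it was 0.978 in spleen (32 and 46 reads). In the event used, PSI was highest in cortex, at 0.309 and 0.224, and lowest in ESC, at 0.0565 and 0.126. Heart had 0.177 and 0.261, kidney 0.143 and 0.176, spleen 0.0999 and 0.151, and lung 0.157 and 0.0772. The liver libraries, at 0.0761 from 66 reads and 0.273 from 94 reads, differed by more than most tissues did. The range of 0.175 was not called (adjusted p from the moderated test 0.489).

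The PSI of these exons was set beside the level of Ptbp1, the family's main repressor. Over the 6 organs, the PSI of the Ptbp2 exon fell as log2 Ptbp1 TPM rose, with Pearson's r = -0.919 and Spearman's rho = -0.943 (n = 6), and r = -0.937 with rescaled TPM. Without the 2 organs farthest from the median Ptbp1 level r was -0.799. With ESC added r was -0.426 (n = 7), and with both fibroblast groups as well -0.33 (n = 9), which turned to 0.178 without the 2 farthest groups. Over the organs the PSI of the same exon gave r = -0.831 against the Ptbp3 level. The Ptbp3 exon gave r = -0.933 over the organs, -0.95 over the 7 tissues and -0.939 over the 9 groups. However, the range of its PSI across tissues was not called (adjusted p from the moderated test 0.489). The exons of Ptbp1 itself gave -0.652 (34 bp) and -0.331 (78 bp) over the organs, and -0.07 and -0.381 over the 7 tissues. These values are descriptions, since the libraries that give the PSI also give the TPM and the organs came from 2 animals.

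**Figure D3:**
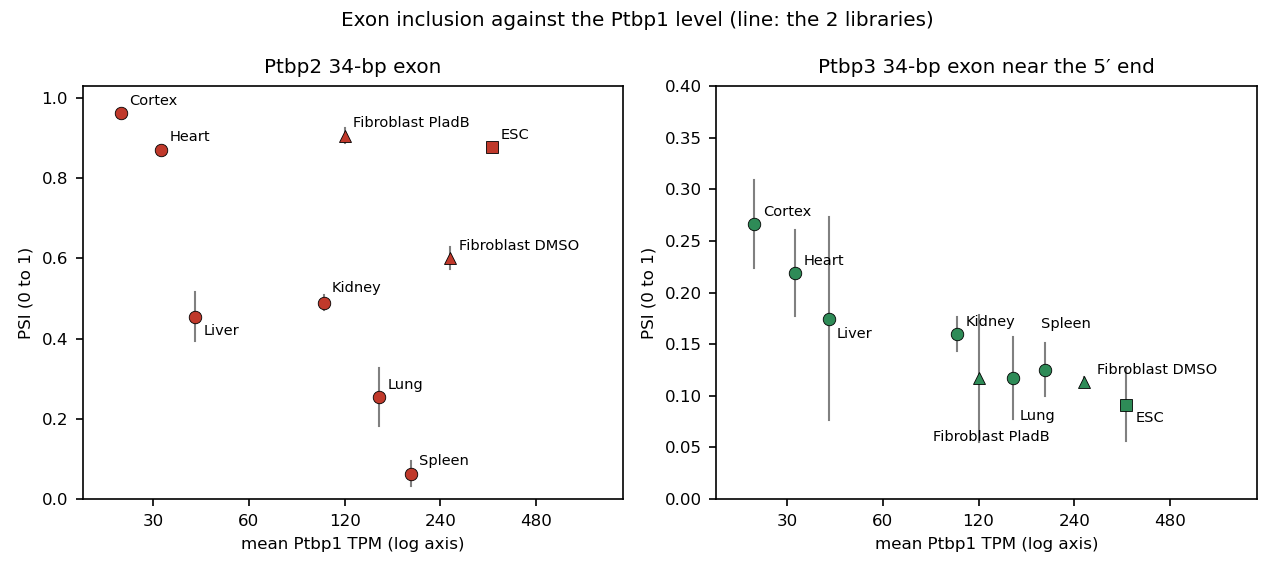
Mean PSI of the 34-bp exon of Ptbp2 and of the 34-bp exon near the 5′ end of Ptbp3 against mean Ptbp1 TPM (log axis) in the 9 groups, with circles for organs, squares for ESC and triangles for fibroblasts. Vertical lines join the 2 libraries. ESC and both fibroblast groups lie apart from the organs for the Ptbp2 exon (r = -0.919 over 6 organs, -0.33 over 9 groups), and for the Ptbp3 exon r is -0.939 over all 9 groups. The range of the Ptbp3 exon across tissues was not called.

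Pladienolide B hinders the SF3B complex in recognising branch points, and its effect was measured in fibroblasts. By TPM all 3 members were lower than with DMSO, and 46.5% of genes were called lower (53.1% in either direction). Ptbp3 fell from 41.6 and 42.1 TPM to 4.7 and 5.2 TPM, which is 8.48-fold. Ptbp1 went from 261 and 256 to 118 and 121 TPM, and Ptbp2 from 43.4 and 42.2 to 24.5 and 27.4 TPM. The treated libraries lay below the DMSO libraries for each gene. On the log2 scale the differences were -3.06 for Ptbp3 (SE 0.11, adjusted p from limma 1.82e-10), -1.11 for Ptbp1 (SE 0.07, adjusted p 4.98e-08) and -0.72 for Ptbp2 (SE 0.18, adjusted p 0.00504).

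The median gene moved by -0.45 between the same libraries. A difference as low as that of Ptbp3 was seen in 5.21% of genes, of Ptbp1 in 35.2% and of Ptbp2 in 43.4%. After division by size factors, where the median gene moved by 0.00, Ptbp3 remained 3.43-fold lower, whereas Ptbp1 was at 0.19 (adjusted p from limma 0.0703) and Ptbp2 at 0.58 (adjusted p 0.0126). The sign of the Ptbp1 and Ptbp2 differences therefore depends on the scale, and that of Ptbp3 does not.

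The 34-bp exon of Ptbp2 was included more with the compound. Its PSI went from 0.574 and 0.629 in DMSO (604 and 568 reads) to 0.888 and 0.925 (150 and 177 reads). The difference of 0.305 was called (adjusted p from the moderated test 0.00595). It was 1 of 70 events called higher among 54535 (0.128%), whereas 7.47% were called lower and 7.60% in either direction. The product of Ptbp2 TPM and PSI was 25.7 ± 1.16 TPM with DMSO and 23.5 ± 2.49 with pladienolide B by TPM as deposited, and 19.4 ± 1.21 and 43.8 ± 4.08 by rescaled TPM (SD, n = 2).

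Of the 41 member events in fibroblasts, 5 were called, and the other 4 went down. The 78-bp exon of Ptbp1 went from 0.676 and 0.681 to 0.556 and 0.555 (-0.123, adjusted p from the moderated test 0.00163). In Ptbp2, a 78-bp exon near the 3′ end (chr3:119720607-119720684) went from 1.00 and 1.00 to 0.847 and 0.834 (-0.160, adjusted p 0.00124). The 140-bp exon of Ptbp2 (chr3:119726066-119726205), in an event whose skipping form reaches from chr3:119740315 past the 34-bp and 93-bp exons to chr3:119721005, went from 0.994 and 1.00 to 0.876 and 0.899 (-0.109, adjusted p 0.0259). A 125-bp exon of Ptbp3 (chr4:59485607-59485731) went from 1.00 and 1.00 to 0.868 and 0.903 (-0.115, adjusted p 0.0268), and the treated values rest on 39 and 36 reads. A 140-bp form of this exon (chr4:59485607-59485746) has the same flanking exons and had 81 to 94 reads in the treated libraries. Its mean PSI went from 1.00 to 0.947 and was not called (-0.0533, adjusted p from the moderated test 0.0263).

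Most other exons moved little and in the same direction. Of all 41 events, 34 had a lower mean PSI with pladienolide B, with a median of -0.0219 beside -0.00524 over all events. Many of the 41 had a mean PSI of 1.00 with DMSO and could only fall, so this count says little about direction. The share of all events with a lower mean was not computed. By gene, 1 of 12 events was called in Ptbp1, 3 of 9 in Ptbp2 and 1 of 20 in Ptbp3. Several events share an exon or a junction, so they are not independent. Below the limit of 0.1, the 34-bp exon of Ptbp1 went from 0.966 and 0.967 to 0.935 and 0.924 (-0.0373, adjusted p from the moderated test 0.00781), and its 196-bp exon from 0.978 and 0.983 to 0.907 and 0.892 (-0.0812, adjusted p 0.01). The 31-bp form of the latter exon went from a mean of 0.998 to 0.987 (-0.0104). The 34-bp exon of Ptbp3 had 0.109 and 0.118 with DMSO and 0.0557 and 0.178 with the compound.

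These 5 calls need both treated libraries. Without either pladienolide B library no event of any gene was called, with adjusted p of 0.218 and 0.242 for the 34-bp exon of Ptbp2, while the differences kept their size (0.323 and 0.287). Without the second DMSO library 3 of the 5 remained, and without the first 4.

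**Figure D4:**
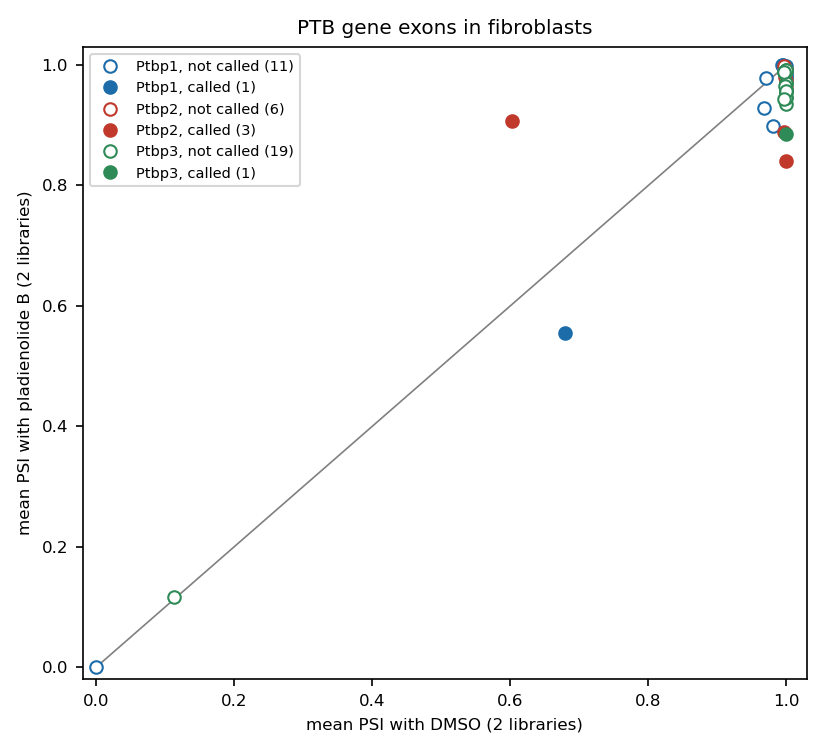
Mean PSI of the 41 tested exon events of the PTB genes in fibroblasts given pladienolide B against DMSO (2 libraries each), with filled points for called events and a line of equal PSI. The 34-bp exon of Ptbp2 (0.602 with DMSO, 0.907 with pladienolide B) is the only called point above the line, and 34 of the 41 points lie below it. Many points have a mean PSI of 1.00 with DMSO and could only fall.

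Intron retention was tabulated for 6 introns of Ptbp1 and none of the other members. Of these, 2 were called and both were retained more with pladienolide B, beside 35.1% of 1802 introns called higher and 38.0% called in all. The intron at chr10:79858825-79858951 went from 0.00775 and 0.00964 to 0.120 and 0.153 (0.128, adjusted p from the moderated test 6.02e-09). The intron at chr10:79859523-79859601 went from 0.0136 and 0.0163 to 0.163 and 0.186 (0.159, adjusted p 1.18e-08). Both were called with any single library left out. The other 4 intervals had values of at least 0.962 in every library.

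The allelic comparison asked whether the C57BL/6J and SPRET/EiJ copies are spliced differently in the same cells. An event was tested where each allele had 20 reads in each library and allelic and total PSI differed by at most 0.1. The 34-bp exon of Ptbp2 could be tested in no group, since only 0.546 to 1.79% of its reads could be given to an allele. In tissues, 0 of 31 member comparisons were called by the moderated test, and 2 had an unadjusted p under 0.05. The background was 0.0808% in ESC, 1.10% in liver, 1.31% in spleen, 1.50% in kidney, 1.53% in cortex, 1.65% in lung and 1.72% in heart.

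In fibroblasts 1 of 10 member events was called with DMSO (background 2.01%) and 0 of 20 with pladienolide B (background 1.64%, 1 event with an unadjusted p under 0.05). The called event was the 34-bp exon near the 5′ end of Ptbp3. Its PSI was 0.0402 and 0.0671 on the C57BL/6J allele and 0.152 and 0.177 on the SPRET/EiJ allele (-0.110, adjusted p from the moderated test 0.0407). With the library as a block, which pairs the alleles of 1 library, the adjusted p was 0.503 and the call was lost. With pladienolide B the alleles had 0.0872 and 0.118 against 0 and 0.325, and the SPRET/EiJ values rest on 29 and 73 reads.

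In kidney the same exon had the opposite order, at 0.294 and 0.310 on the C57BL/6J allele and 0.0903 and 0.135 on the SPRET/EiJ allele. The difference of 0.190 was not called (adjusted p from the moderated test 0.234), and the C57BL/6J values rest on 24 and 28 reads. Of this exon's reads, 29.9% could be given to an allele in kidney and 82.7% in DMSO fibroblasts. The C57BL/6J allele gave 21.2 to 31.3% of this exon's allelic reads in tissues and 55.0 to 63.0% in fibroblasts. The alleles overlapped in spleen (0.129 and 0.169 against 0.0768 and 0.146) and in ESC (0.0406 and 0.0956 against 0.0459 and 0.0714).

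The 34-bp exon of Ptbp1 had the most allelic reads and a small difference with 1 direction. The SPRET/EiJ allele included it more in 17 of 18 libraries, the exception being 1 cortex library. Mean differences ran from -0.00702 in spleen to -0.0509 in heart. In lung the C57BL/6J allele had 0.846 and 0.859 and the SPRET/EiJ allele 0.893 and 0.909 (-0.0484, adjusted p from the moderated test 0.288). In DMSO fibroblasts the values were 0.952 and 0.956 against 0.971 and 0.969 (-0.0162, adjusted p 0.186). The alleles overlapped in cortex, spleen and liver and not in the other 6 groups, and none of the 9 differences was called. How many of all events separate the alleles in this way, or keep 1 direction, was not computed. The libraries of the organs share animals and the fibroblasts are 1 line, so the 18 libraries are not independent.

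**Figure D5:**
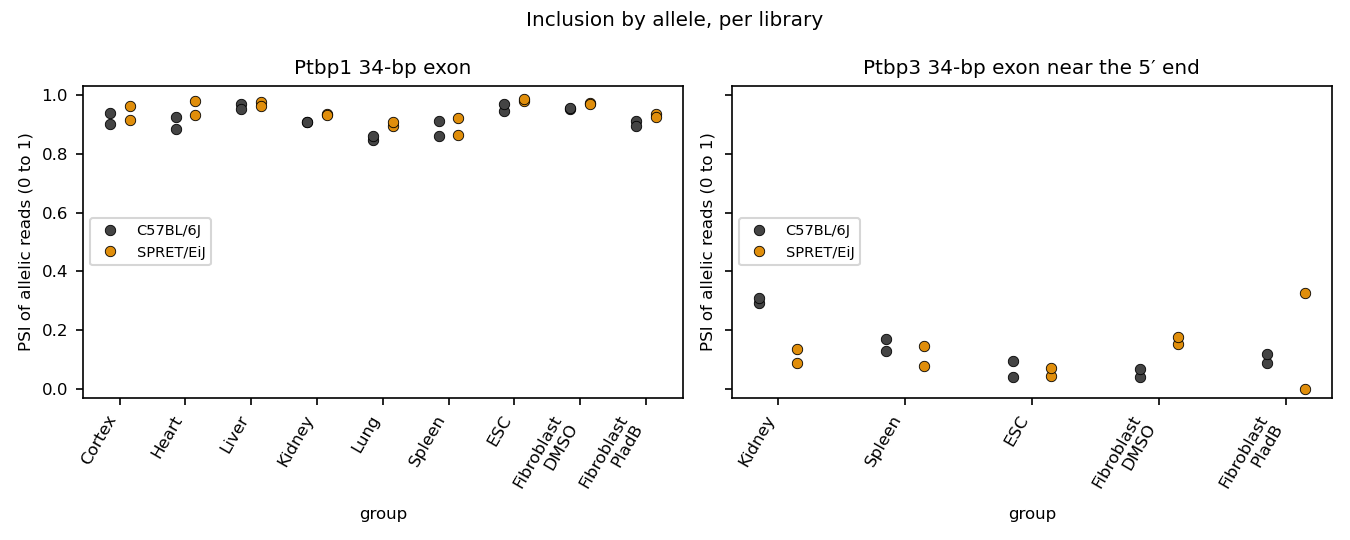
PSI of the C57BL/6J (dark) and SPRET/EiJ (orange) allele in each library for the 34-bp exon of Ptbp1 (9 groups) and the 34-bp exon near the 5′ end of Ptbp3 (the 5 groups with enough allelic reads). The SPRET/EiJ points of Ptbp1 lie slightly higher (mean C57BL/6J minus SPRET/EiJ of -0.00702 to -0.0509), and the order of the alleles in Ptbp3 differs between kidney (0.190) and DMSO fibroblasts (-0.110).

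Neither interaction was called for any member. Allele by tissue could be tested for 5 events, with 0 called by the moderated test and 0 with an unadjusted p under 0.05 (background 0.0189%). Allele by treatment could be tested for 7 events, with 0 called and 0 with an unadjusted p under 0.05 (background 0%, where 544 of 13352 events had an unadjusted p under 0.05). The power behind these statements was limited, since in simulated allelic data a difference of 0.4 was recovered for 48.0% of changed events in cortex and for 8.0% in ESC.

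The genes whose mean log2(TPM + 0.1) over the 9 groups was most like that of each member were taken from 18708 genes. For Ptbp1 they were Hnrnpf (r = 0.956), another RNA-binding splicing regulator, Sertad3 (0.948) and Pole2 (0.947), a DNA polymerase subunit. For Ptbp2 they were Rragb (0.985), Eno2 (0.98), the neuronal enolase, and Matr3 (0.978), an RNA-binding protein that interacts with Ptbp1. For Ptbp3 they were Rpf1 (0.959), Prps1l3 (0.95) and Dpp3 (0.946). Between members r was 0.621 for Ptbp1 and Ptbp3, 0.103 for Ptbp2 and Ptbp3, and 0.035 for Ptbp1 and Ptbp2.

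Partners of PTB and other regulators of its target exons formed a list of 14 genes, chosen with earlier results of these data known. Across tissues 14 of 14 were called (98.8% of all genes were), with the largest ranges for the neuronal regulators Rbfox1 (11.05 on the log2 scale), Rbfox3 (10.00) and Nova1 (8.61). In cortex 7 to 12 of the 14 were higher than in each other tissue and 0 to 5 lower, where 30.3 to 60.6% and 10.6 to 27.7% of all genes were, and after rescaling 7 to 9 higher and 1 to 4 lower. With pladienolide B, 7 were lower and 2 higher, with a median of -0.35 beside -0.45 for all genes, but after rescaling 2 were lower and 6 higher. Raver1, a co-repressor that binds Ptbp1, was lower on both scales (-1.83 and -0.53), as was Rbfox2 (-1.74 and -0.44).

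A further list held 14 genes known for exons that respond to PTB, and it too was chosen with earlier results of these data known. Across tissues 16 of their 52 events were called, in 8 of the 10 genes with events, beside 7.48% of all events, and their median range was 0.0583 beside 0.0145 for all events. Exons of Clta recur among the 16 with different flanking exons, so the calls are not all separate exons. These shares only describe the list. The largest ranges were those of a 54-bp exon of Cltb (0.814), an 18-bp exon of Src (0.805) and a 36-bp exon of Clta (0.776). They carry inserts, known from neurons, of the clathrin light chains and of the Src kinase. The Clta exon was also included in heart, at a mean of 0.554 beside 0.797 in cortex. The range of the 34-bp exon of Ptbp2, 0.898, exceeded all 52. With pladienolide B 4 of 99 events were called, all lower, which is no larger a share than the 7.47% of all events called lower. A 77-bp exon of Src (-0.205) and a 78-bp exon of Fgfr2 (-0.184) were among them.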

How the data were processed

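Stranded mRNA libraries (18) had been sequenced. The authors trimmed reads to 76 bp, aligned them with HISAT2 2.0.1 to mm10 (C57BL/6J) and, separately, to its SPRET/EiJ version, and gave each read to the closer genome. The deposited skipped exon and retained intron tables hold rMATS junction read counts, with both libraries in 1 cell, and a score column with the number of read positions specific to each form, from which PSI was computed. The same tables hold the authors' own p-values and PSI differences, which were not used. The deposited TPM come from featureCounts, with fractional counts for overlapping genes, so depth behind a TPM is unknown. Allele columns were checked on imprinted genes. PSI was tested with a quasi-binomial model (dispersion of at least 1, moderated with limma 3.58.1 in R 4.3.3 along read depth) over autosomal events with 20 or more reads, and TPM with limma-trend on log2(TPM + 0.1) over genes of at least 1 TPM in at least 2 libraries, with Benjamini-Hochberg adjustment. PSI differences of at least 0.1 and log2 differences of at least 1 (none with pladienolide B) were required. Tests were checked on simulated data: a difference of 0.4 in PSI was recovered for 75.0% of events across tissues and 36.0% with pladienolide B. Likeness named the 3 genes with the highest r. Members and gene lists were chosen with earlier results of these data known. Other scripts used Python 3.11.15. The marker list of spleen is not reported here.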

Additional observations from a re-analysis of the deposited data

Results flagged for a closer look

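In 3 exons the alleles differed in opposite directions in different groups, with every library of a group on its side. None of these differences between groups was tested on its own. The interaction tests that could be run were not called, but they stayed within tissues or within fibroblasts and compared no tissue with DMSO fibroblasts. The share of all events with such a pattern was not computed. The 34-bp exon of Ptbp3 near its 5′ end had a C57BL/6J minus SPRET/EiJ difference in PSI of 0.190 in kidney, positive in spleen too, and of -0.110 in DMSO fibroblasts. The 196-bp exon of Ptbp1 had 0.0517 in ESC and -0.0374 in DMSO fibroblasts. A 31-bp exon inside it, in an event with the same flanking exons, had 0.0219 in ESC and -0.00247 in DMSO fibroblasts. These events of Ptbp1 are therefore not independent. The share of reads given to an allele also differed between the groups compared. For the Ptbp3 exon it was 29.9% in kidney and 82.7% in DMSO fibroblasts. For the 196-bp and 31-bp exons it was 6.26% and 4.26% in ESC, and 26.0% and 42.3% in DMSO fibroblasts. Whether this bears on the directions was not tested.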

How the results depend on the processing

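The labels do not tie a replicate number to an animal, although the organs came from 2 animals, and the numbers were not taken as pairs. Deviations of same-numbered libraries correlated at -0.084 to 0.0734 for PSI over 21 tissue pairs, and for TPM at 0.0042 to 0.2767 over 15 organ pairs, 6 of them over 0.1. Between the 2 fibroblast groups they correlated at 0.0069 for PSI and -0.1278 for TPM. With the replicate block, the calls among member events went from 2 to 1 across tissues (the 78-bp exon of Ptbp1, adjusted p from the moderated test 0.0798), from 5 to 0 after pladienolide B (0 events of any gene called) and from 1 to 0 between alleles in fibroblasts. No other count of member calls changed by over 1.5 times under it, while over all genes allelic calls went from 1824 to 5 in tissues and from 1005 to 0 in fibroblasts, and allele by tissue calls from 6 to 2. Crossing the numbers left 3 of 3 members called by TPM after pladienolide B (11739 genes in all, beside 11760). With limma on the log2 ratio of inclusion to skipping reads, chosen after seeing the data, 1 event was called across tissues (adjusted p 0.0519 for the 78-bp exon of Ptbp1). Leaving out 1 library gave 1 to 3 calls across tissues and 0 to 4 after pladienolide B. With rescaled TPM, the differences after pladienolide B were 0.19 for Ptbp1 and 0.58 for Ptbp2. Over all alternatives, 146 counts of calls stayed within 1.5 times their value and 17 did not. Among values of single genes and exons, 752 kept their direction and call, 33 lost and 4 gained a call, and 2 changed sign. A planned negative-binomial test of the junction reads was not run. Precision rests on 2 libraries a group, and for the called Ptbp3 exon on 39 and 36 reads with the compound.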
